A study of Homo sapiens with 6 samples.

Results

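The rows described here are whole-number entries of the deposited expression table of NALM6 cells that were above 0 in at least 1 verteporfin library and in at least 1 DMSO library. They lie after the first 62250 rows of the table, which hold FPKM, fragment numbers divided by the length of the transcript and the size of the library. The block after them has 4765 rows of whole numbers (tolerance 0) under 2939 transcript identifiers, many of them repeated, and 1428 of those rows (30.0%) met the rule. Members were thus chosen by their whole-number values in both groups, and the values of the members are given as a description, with no test. The remaining 1837 rows above 0 in verteporfin alone and 1500 rows above 0 in DMSO alone serve for comparison. NALM6 is an established human cell line from a leukemia of precursor B cells. The tested cells were kept for 48 h with verteporfin, a porphyrin known to block binding of the coactivator YAP to TEAD factors, at the 0.6 mmol/L that the labels state, and the control cells with DMSO, its solvent. Each group has 3 libraries, made from total RNA with random priming, and all come from the same cell line. Nothing in the labels says that replicates are separate cultures, so a p-value here measures the spread between libraries, which may be technical.

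What the whole numbers count is not stated in the sources used here. They were treated as candidate back-splice counts. In back-splicing the spliceosome joins the end of an exon to the start of an upstream exon, which closes the RNA into a ring, and reads across that junction are counted for each ring. Such circular RNAs have no free ends and no poly(A) tail, resist exonucleases and outlive most messenger RNAs, and a host gene can give rise to several of them. Random-primed total RNA keeps them, whereas poly(A) selection removes most. The table gives an identifier and 6 values per row and no junction coordinates, so a row is named here by its host gene, and where in the transcript it lies was not analysed here. Rows of a host share the gene and are not replicates.

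Rows found in both groups carried most of the whole numbers. Together they summed to 17176 of 28638 over the 6 libraries (60.0%). In verteporfin replicates 1, 2 and 3 they summed to 3537, 6285 and 2263, and in DMSO replicates 1, 2 and 3 to 2129, 1628 and 1334. All 3 verteporfin libraries thus lay above all 3 DMSO libraries. The whole block of 4765 rows, members or not, differed in the same way, with sums of 5883, 9562 and 5130 in verteporfin and 3273, 2719 and 2071 in DMSO. Its mean was 6858 ± 2372 in verteporfin and 2688 ± 602 in DMSO (SD, n = 3 each), a ratio of 2.55, with a 2-sided exact permutation p of 0.1. This design cannot give a smaller p, and the value adjusted over 4 measures of the block was also 0.1. It is no test of the members, which are part of these sums. Rows above 0 numbered 1519, 1871 and 1795 in verteporfin libraries and 1284, 1210 and 935 in DMSO libraries, also without overlap (exact permutation p = 0.1). Read depth per library is unknown. The FPKM rows listed at 0 were 8.16% ± 3.07 of the FPKM rows in verteporfin and 15.7% ± 2.58 in DMSO (SD, n = 3 each), and the part of depth in the sums was not tested. In bulk RNA, fewer cells of a kind and less RNA per cell cannot be told apart.

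**Figure D1:**
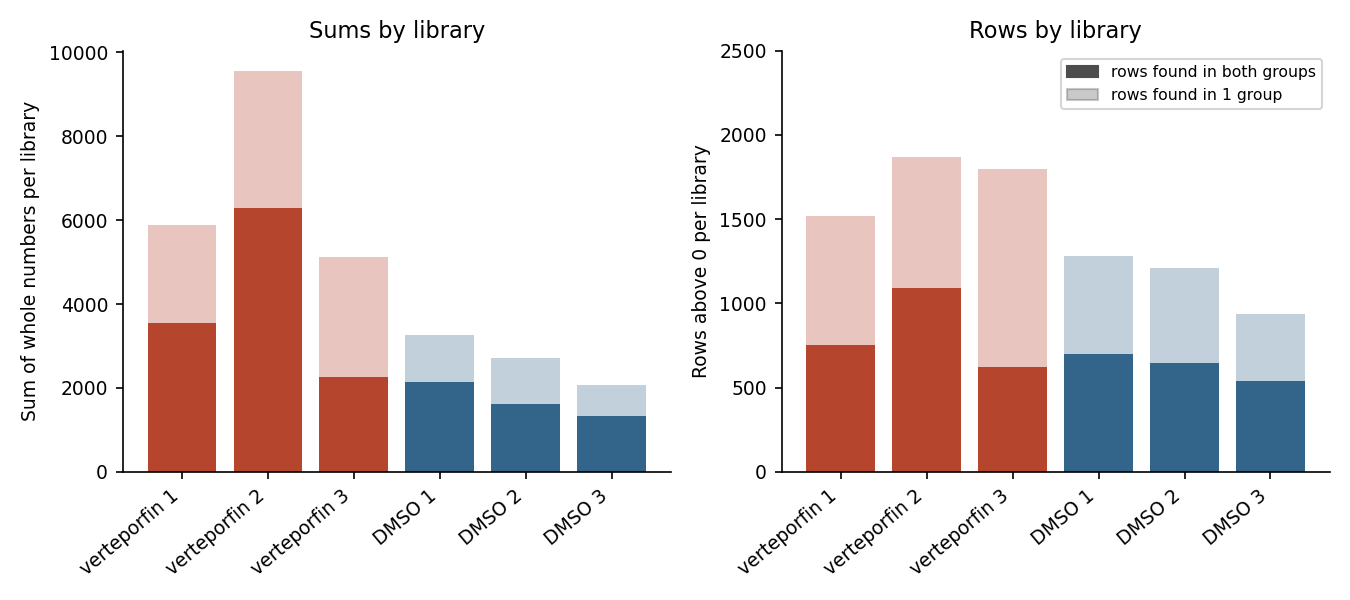
Sum of the whole numbers (left) and number of rows above 0 (right) in each verteporfin library (red) and each DMSO library (blue), with rows found in both groups in full colour and rows found in 1 group in pale colour. Verteporfin replicate 2 has the highest sum, 9562, and DMSO replicate 3 the lowest, 2071.

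To compare hosts across libraries of unequal sums, each value was also divided by the whole-number sum of its library and given per 1000. On this scale the members as a set did not hold a larger share in verteporfin. Their share was 60.1%, 65.7% and 44.1% of the library sum in verteporfin and 65.0%, 59.9% and 64.4% in DMSO, so that the groups overlapped. Verteporfin replicate 3 stood apart with the lowest share. It had 1795 rows above 0, but 620 of the members, fewer than the 755 and 1090 of verteporfin replicates 1 and 2 and within the 541 to 698 of the DMSO libraries.

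Most members were sparse. Their median sum over the 6 libraries was 7, against 2 for rows found in 1 group, and 581 of them (40.7%) summed to 5 or less. A set of 189 rows with a sum of at least 20 held 48.8% of the members' total. Members were above 0 in 2 libraries in 629 rows, in 3 in 370, in 4 in 235, in 5 in 124 and in all 6 in 70. Just inside the rule were 80 rows with a value of 1 in 1 library of each group, and just outside it 520 rows with a value of 1 in 1 library in all. Even values were more common than odd ones. Of 4348 values above 0 in members, 1533 were 2 and 1036 were 1, and 56.7% were even, against 61.9% over all rows of the block.

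The identifiers of the members matched 1050 host genes in GENCODE 29, and 4 member rows were unmatched. A host had 1 member row in 819 cases (78.0%), 2 in 160 and 3 or more in 71. Of the hosts 566 (53.9%) also held rows found in 1 group. Members were listed under multi-exon, mostly coding transcripts. Among the 1102 matched identifiers of members the median was 14 annotated exons (quartiles 9 and 21), the minimum was 3 exons and 0 had a single exon. Identifiers of rows found in 1 group had a median of 15 exons, and identifiers with FPKM one of 5, with 1672 single-exon transcripts among 61975. Transcripts annotated as protein coding made up 87.8% of the members' identifiers and 54.3% of those with FPKM, and transcripts annotated for nonsense-mediated decay 6.26% and 0.0791%. The rows found in 1 group were close to the members in these features, with quartiles of 10 and 22 exons, 87.2% coding and 5.95% annotated for decay. The FPKM block held almost no transcripts annotated for decay, so that contrast describes the FPKM block as well. It lists 61975 matched transcripts of 13494 genes, while the members' 1102 identifiers belong to 1050 hosts. The sets are thus not matched in transcripts per gene, which bears on the contrasts in exons and coding too.

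**Figure D2:**
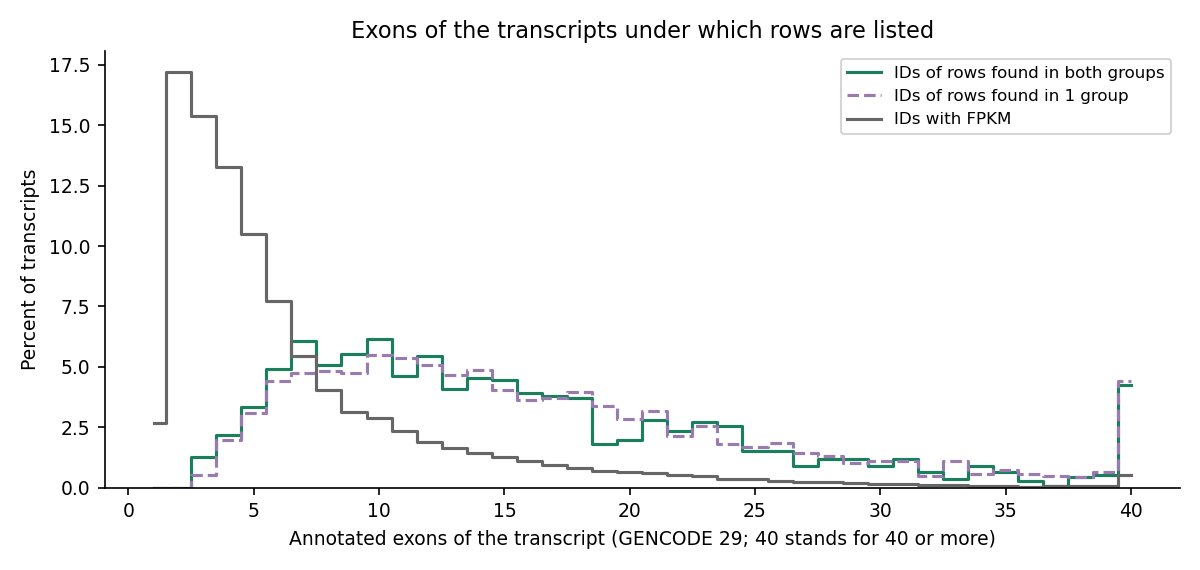
Percent of transcripts (vertical axis) with each annotated number of exons (horizontal axis, GENCODE 29) among identifiers of rows found in both groups (green), of rows found in 1 group (dashed) and of FPKM rows (grey). Both whole-number curves start at 3 exons, with medians of 14 and 15, while the FPKM curve has a median of 5.

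Hosts were genes of higher FPKM. The 1032 hosts with a test had a median of 21.6 FPKM (quartiles 10.7 and 41.9), hosts of rows found in 1 group alone one of 15.7 and genes without a whole-number row one of 7.81. When all tested genes were split by FPKM into 4 groups of 3238, 1.17%, 5.78%, 10.1% and 14.8% hosted a member, from the lowest group up. Across hosts, however, the value of the member rows followed the FPKM of the host only loosely, with a Spearman rho of 0.21 over 1032 hosts that share the same libraries, and of 0.03 to 0.22 within single libraries.

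The host with the largest share was NRIP1, on chromosome 21, a corepressor of nuclear hormone receptors. Its member rows summed to 127, 310 and 57 in verteporfin and 50, 19 and 15 in DMSO. Nearly all of it lay in a row under ENST00000318948, with values of 124, 278 and 54 in verteporfin and 48, 19 and 12 in DMSO. That transcript has 4 exons, the longest of them 7292 of its 7556 bases. Per 1000 of the library sum NRIP1 was at 21.6, 32.4 and 11.1 in verteporfin and 15.3, 6.99 and 7.24 in DMSO. The groups overlapped once scaled, at 21.7 ± 10.7 in verteporfin and 9.84 ± 4.71 in DMSO (SD, n = 3 each). The ratio of these means was 2.21, and 1.66 without verteporfin replicate 2. The host gene was at 37.2 ± 15.8 FPKM in verteporfin and 37.5 ± 2.42 FPKM in DMSO (SD, n = 3 each).

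ZNF608, a zinc finger gene on chromosome 5, kept its groups apart on both scales. Its leading row had values of 40, 29 and 30 in verteporfin and 6, 4 and 4 in DMSO. Its rows together were at 5.95 ± 1.82 per 1000 in verteporfin and 2.21 ± 0.328 per 1000 in DMSO (SD, n = 3 each), a ratio of 2.69. The host was at 55.6 ± 5.91 FPKM in verteporfin and 42.1 ± 11.3 FPKM in DMSO. CDYL, a chromodomain corepressor gene on chromosome 6 and a known source of a circular RNA, had 1 row, with values of 19, 76 and 14 in verteporfin and 5, 7 and 2 in DMSO. It was at 3.23, 7.95 and 2.73 per 1000 in verteporfin and 1.53, 2.57 and 0.966 per 1000 in DMSO. Its ratio of mean shares was 2.74, and 1.76 without verteporfin replicate 2. The host was at 49.0 ± 4.49 FPKM in verteporfin and 41.4 ± 1.87 FPKM in DMSO.

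Other leading rows had larger means in verteporfin as deposited, and their groups overlapped when scaled. ATXN7, a subunit of the SAGA histone acetyltransferase complex, had a row with values of 97, 27 and 24 in verteporfin and 25, 8 and 19 in DMSO. Its host level was 3.93 ± 2.89 FPKM in verteporfin and 6.69 ± 2.85 FPKM in DMSO (SD, n = 3 each). GCN1, which activates the stress kinase GCN2, had a row with values of 40, 26 and 38 in verteporfin and 27, 15 and 14 in DMSO. Per 1000 it was at 5.64 ± 2.55 in verteporfin and 6.84 ± 1.37 in DMSO, so that the order of the means turned round. Without verteporfin replicate 2 the ratio of shares was 1.04. NMRAL1, a sensor of NADPH, had a row with values of 48, 22 and 28 in verteporfin and 22, 8 and 20 in DMSO. The rows of NMRAL1 together were at 5.34 ± 2.88 per 1000 in verteporfin and 6.64 ± 3.41 per 1000 in DMSO, again in the other order, with a ratio of 1.02 without verteporfin replicate 2. CTBP1, a transcriptional corepressor, had a row with values of 54, 21 and 23 in verteporfin and 27, 12 and 5 in DMSO. FIRRE, a long noncoding RNA of the X chromosome, had a row with values of 19, 35 and 14 in verteporfin and 5, 16 and 5 in DMSO, or 3.21 ± 0.466 per 1000 in verteporfin and 3.28 ± 2.30 per 1000 in DMSO (SD, n = 3 each).

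**Figure D3:**
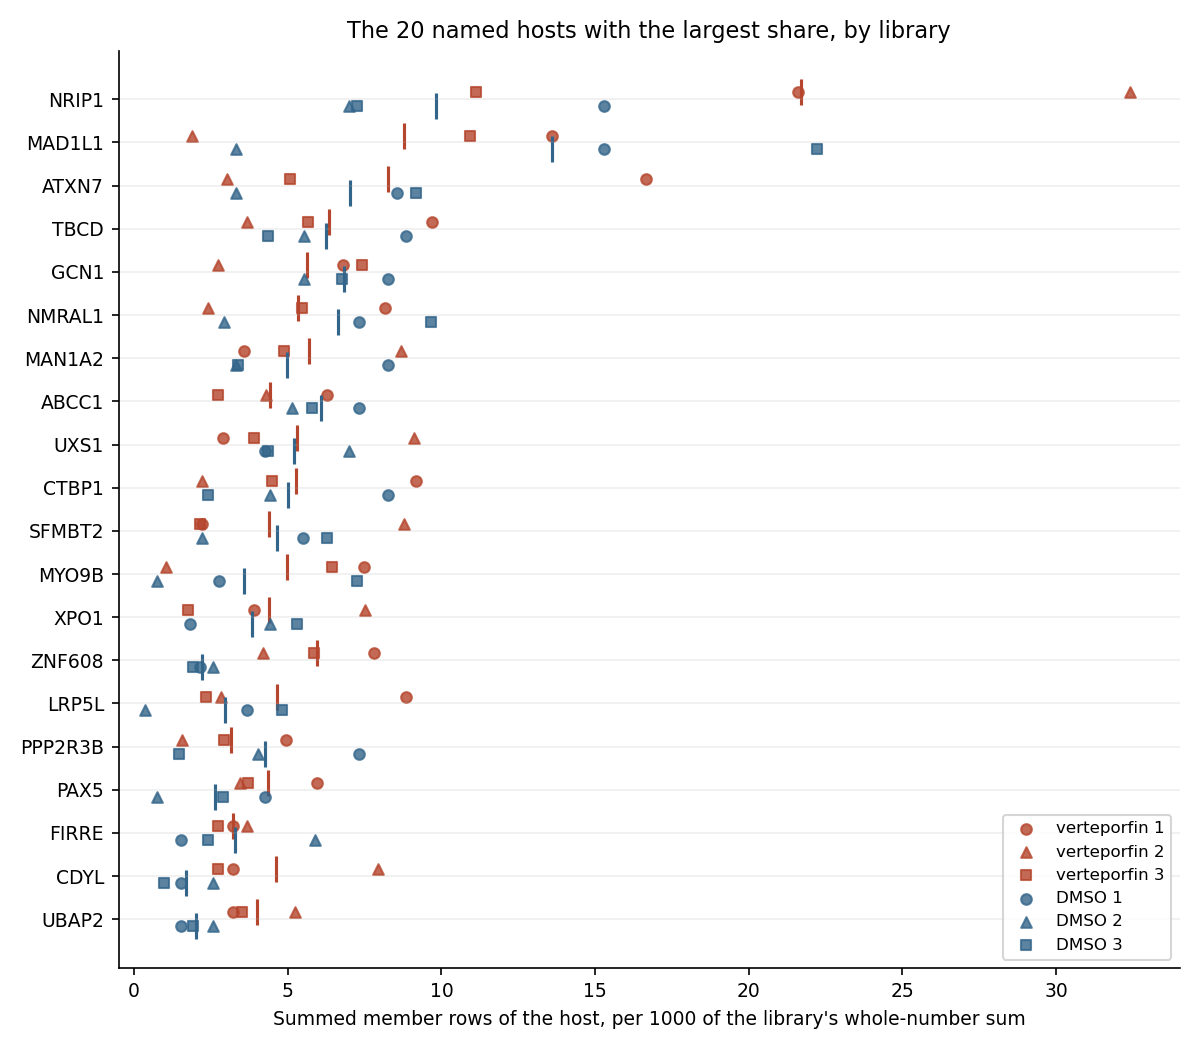
Summed member rows of 20 named hosts with the largest shares, per 1000 of the whole-number sum of the library (horizontal axis), with a symbol per replicate, verteporfin in red above DMSO in blue, and a vertical tick at each group mean. NRIP1 lies highest with a verteporfin mean of 21.7, and the groups overlap in most hosts but stay apart in ZNF608, CDYL and UBAP2.

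A few hosts held many rows. MAD1L1, a gene of the spindle assembly checkpoint on chromosome 7, had 16 member rows of 28 rows in all, every one under the same transcript of 17 exons. They summed to 80, 18 and 56 in verteporfin and 50, 9 and 46 in DMSO, or 8.80 ± 6.14 per 1000 in verteporfin and 13.6 ± 9.56 per 1000 in DMSO (SD, n = 3 each). Both libraries numbered 2 were low in it. Its FPKM were low in the same libraries, at 176.9, 49.98 and 100.2 FPKM in verteporfin and 139.5, 69.1 and 129.8 FPKM in DMSO. TBCD, a tubulin folding cofactor, had 14 member rows of 21, with row sums from 3 to 30 and 17.2% of the sum in the highest row. SMARCC1, a subunit of the SWI/SNF chromatin remodeler, had 8 low member rows of 14, with a highest row sum of 9.

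In some other hosts of several rows 1 row held most of the sum. SFMBT2, a Polycomb gene, had 7 member rows and 56.6% of their sum in the highest, and UBAP2, a ubiquitin-binding protein gene, also had 7 with 56.3% in the highest. UXS1, the enzyme that makes UDP-xylose, had 5 member rows, 54.2% of their sum in the highest, and ABCC1, the drug efflux pump MRP1, had 5 of 16 rows with 55.6% in the highest. XPO1, the nuclear export receptor, had 5 member rows of 11, with 44.4% of their sum in the highest. They summed to 23, 72 and 9 in verteporfin and 6, 12 and 11 in DMSO, a ratio of mean shares of 1.14. Without verteporfin replicate 2 that ratio was 0.74. MAN1A2, a Golgi mannosidase, had 3 member rows with row sums of 78, 58 and 36, each above 0 in all 6 libraries.

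Verteporfin replicate 2 was the highest library in many of the larger rows. Of the 189 rows with a sum of at least 20, that library was the highest in 106 as deposited, and it held at least 50% of the row sum in 62, against 7 rows in which another library did. That library also has the largest sum. Per 1000 of the library sum it was the highest in 64 of the 223 hosts with a member sum of at least 20, against 45 and 13 for verteporfin replicates 1 and 3 and 33 to 35 for the DMSO libraries. An example, chosen after its values were seen, was a row of TIMMDC1, an assembly factor of respiratory complex I, with 2, 176 and 2 in verteporfin and 0, 3 and 2 in DMSO. The FPKM of TIMMDC1 were 11.2, 12.1 and 13.6 in verteporfin and 9.10, 18.1 and 12.8 in DMSO, with no such peak. Of the 223 hosts, 205 had a higher mean in verteporfin as deposited, with a median ratio of 2.88 where the sums of the whole block had 2.55. Scaled to the library sum, 123 of the 223 had a ratio above 1, with a median of 1.07, and 109 had one without verteporfin replicate 2.

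Few members kept their groups apart. As deposited, all verteporfin libraries were above all DMSO libraries in 59 of 1428 members (4.13%), against 3.82% of all 4765 whole-number rows, and below them in 1 (0.0700%), against 0.063% of all rows. Per 1000 of the library sum the counts were 23 above (1.61%, against 3.06% of all rows) and 11 below (0.770%, against 0.273% of all rows). The rule used these values, so the counts are a description and carry no test. The 23 included ZNF608, CDYL, RNF138, UBAP2 and CHD2. The 11 included NCL, the nucleolar protein nucleolin, whose row had 0, 4 and 1 in verteporfin and 6, 4 and 4 in DMSO, and DYNC1H1, the dynein heavy chain, whose row had 5, 1 and 4 in verteporfin and 12, 5 and 4 in DMSO. RNF138, NCL and DYNC1H1 were picked after their values were seen.

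Many genes listed as known sources of circular RNAs hosted members. This list and the gene lists below were chosen with earlier results of these data known. The percentages of their genes that hosted members may reflect that choice, and they are a description with no test. Of 50 genes listed as known sources, 41 hosted some row of the block, found in both groups or not. Over the whole table, 10375 of 12952 tested genes had no whole-number row. Of the 50 listed genes, 48 were tested in FPKM. Of these, 31 (64.6%) hosted members, with 71 member rows, while 7.97% of all tested genes did. Among them were CDYL, MAN1A2, XPO1, TBCD, CAMSAP1, ASXL1, SETD3, ZKSCAN1, FBXW7, SMARCA5, UBXN7 and the noncoding PVT1. CAMSAP1, which binds microtubule minus ends, had a leading row with values of 6, 31 and 5 in verteporfin and 4, 16 and 9 in DMSO. Its rows together were at 1.78 ± 1.36 per 1000 in verteporfin and 4.14 ± 2.54 per 1000 in DMSO (SD, n = 3 each). The order of the means thus turned round when scaled, and the groups overlapped. FBXW7, a ubiquitin ligase subunit that marks MYC and NOTCH1 for decay, had a row with 18, 27 and 2 in verteporfin and 0, 4 and 1 in DMSO. Its ratio of mean shares was 3.21, with overlapping groups. HIPK3, a kinase gene with a well-known circular exon, had 1, 15 and 4 in verteporfin and 2, 0 and 0 in DMSO, and was picked after its values were seen. Together the listed hosts took 4.40%, 7.79% and 3.63% of the library sum in verteporfin and 3.94%, 4.74% and 4.97% in DMSO. The groups overlapped, and verteporfin replicate 2 alone was above the rest.

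Chromatin regulators hosted members in 27 of 52 listed genes (51.9%, against 7.97% of all tested genes), with 55 rows. By any row of the block, 39 of the 52 were hosts. The list shares CDYL, SMARCC1, SMARCA5, ASXL1 and KDM4C with the list above. CHD2, a chromatin remodeler, had a row with 14, 23 and 10 in verteporfin and 4, 0 and 2 in DMSO, or 2.24 ± 0.256 per 1000 in verteporfin and 0.729 ± 0.644 per 1000 in DMSO (SD, n = 3 each). SETD2, the histone H3 lysine 36 methyltransferase, had 2, 5 and 0 over its 4 member rows in verteporfin and 4, 2 and 3 in DMSO, a ratio of shares of 0.25, and 0.15 without verteporfin replicate 2. NSD2, another methyltransferase of that residue, had 19, 37 and 6 in verteporfin and 9, 3 and 2 in DMSO. Its ratio of mean shares was 1.72, with overlapping groups.

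Among 36 genes of the B lineage 15 hosted some row of the block. Of the 36, 35 were tested and 8 of them (22.9%, against 7.97% of all tested genes) hosted members, with 15 member rows. PAX5, the factor that fixes B-cell identity, had 5 of the 15 rows, summing to 35, 33 and 19 in verteporfin and 14, 2 and 6 in DMSO. Per 1000 it was at 4.37 ± 1.38 in verteporfin and 2.64 ± 1.79 in DMSO, with overlap, and its level was 113 ± 24.2 FPKM in verteporfin and 112 ± 4.27 FPKM in DMSO (SD, n = 3 each). EBF1, a pioneer factor of the lineage, had 2, 15 and 8 in verteporfin and 2, 6 and 0 in DMSO. BACH2, a repressor of plasma cell genes, had 3, 16 and 2 in verteporfin and 0, 8 and 0 in DMSO. The ratios of mean shares were 1.23 for EBF1 and 0.87 for BACH2, so that the order of the means turned round in BACH2. RUNX1, FOXP1, TCF4, MME and DNTT had member sums of 19 or less. All 10 precursor B-cell markers were among the FPKM, and the markers listed for T cells, erythroid cells, fibroblasts and epithelium had no FPKM row. Of 5 myeloid markers LYZ was listed, at 1.33 to 2.05 FPKM in verteporfin and 2.01 to 2.56 FPKM in DMSO.

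The Hippo pathway is the kinase cascade that holds YAP in the cytoplasm. Of 46 listed genes 3 hosted members, 9.09% of the 33 tested against 7.97% of all genes. By any row of the block, 15 of the 46 were hosts. STRN3, also on the list of known circular RNA hosts, is a STRIPAK scaffold that counters the Hippo kinases. It had a row with 10, 11 and 2 in verteporfin and 2, 0 and 0 in DMSO, a ratio of mean shares of 5.30 with overlapping groups. DLG1, a polarity scaffold, had 1, 4 and 3 in verteporfin and 0, 2 and 5 in DMSO. WWC3, of the KIBRA family, had 0, 2 and 2 in verteporfin and 0, 0 and 2 in DMSO. The ratios of mean shares were 0.37 for DLG1 and 0.62 for WWC3, so that the order of the means turned round in both.

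The level of the host genes, as FPKM summed per gene, did not enter the rule. In random-primed total RNA this level can include reads of circular RNAs, so it is not one of messenger RNA alone. It comes from the same libraries, and genes of higher FPKM hosted members more often. Hosts and all genes are thus not matched in level. Of the 1032 hosts tested, 0 passed at an adjusted p under 0.05 by limma in either direction, while 2 of 12952 genes (0.0154%), both higher, did so over the whole table. The lowest adjusted p among hosts was 0.144. On simulated data the same fit called 5.6% of genes changed by a log2 of 1, with the changed genes drawn from those of higher FPKM. Most changes of that size would thus be missed in such genes, and genes of low FPKM were not covered. A block for the replicate number raised the count of hosts that passed to 8 by limma, of 84 genes (0.649%) over the whole table. At an unadjusted p under 0.05, without the block, limma gave 63 hosts (6.10%), 28 higher and 35 lower, against 8.84% of all genes. The median log2 fold change of hosts was -0.00034, and that of all tested genes 0.0074. Of the hosts, 516 had a log2 fold change above 0.

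The hosts with the largest differences in FPKM had few whole numbers. SLC19A1, the reduced folate carrier that also takes up methotrexate, was at 12.7, 24.2 and 17.4 FPKM in verteporfin and 53.5, 45.6 and 56.1 FPKM in DMSO. The groups did not overlap, and the log2 fold change was -1.50 with a standard error of 0.30 (adjusted p = 0.197 by limma). Its 2 member rows summed to 9, 9 and 4 in verteporfin and 0, 0 and 3 in DMSO. Per 1000 they were at 1.53, 0.94 and 0.78 in verteporfin and 0, 0 and 1.45 in DMSO, so that the groups overlapped. TGFB1, a cytokine gene, was at 81.5 ± 26.8 FPKM in verteporfin and 192 ± 35.0 FPKM in DMSO, a log2 fold change of -1.27 (adjusted p = 0.383), with member values of 7, 2 and 0 in verteporfin and 2, 0 and 0 in DMSO. RMDN3, which tethers mitochondria to the endoplasmic reticulum, had a log2 fold change of -1.38, TMEM109, a membrane protein gene, one of -1.29 and NUP210, a nuclear pore protein gene, one of -1.22. RMDN3 is among the 23 rows above, with 3, 8 and 4 in verteporfin and 1, 0 and 0 in DMSO.

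At the upper end TTLL1, which adds glutamate chains to tubulin, was at 9.29, 6.76 and 2.50 FPKM in verteporfin, against 0.671 FPKM in DMSO replicate 3 and a listing at 0 in the other two DMSO libraries. Its log2 fold change was 2.46 on the log2(FPKM + 1) scale (adjusted p = 0.144), and its member row had 0, 2 and 0 in verteporfin and 0, 0 and 2 in DMSO. ZNF652, a zinc finger repressor gene, had a log2 fold change of 1.65, CCDC50, a ubiquitin-binding protein gene, one of 1.41 and ZC3H6, a zinc finger gene, one of 1.34. ENSG00000249319, which the annotation leaves without a symbol, was at 4.09, 1.24 and 2.98 FPKM in verteporfin and listed at 0 in the DMSO libraries. Without the replicate block none of these passed over all genes. With it TTLL1 (adjusted p = 0.0466 by limma) and ENSG00000249319 (0.0499) passed, as did SLC19A1 (0.0404), TGFB1 (0.0396), RMDN3 (0.0495) and TMEM109 (0.0350). In this balanced design the block leaves the fold changes as they are, and only the error differs. Across 220 hosts with a member sum of at least 20 and a test, the log2 ratio of shares and the log2 fold change of FPKM had a Spearman rho of 0.15, a description over hosts that share libraries.

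**Figure D4:**
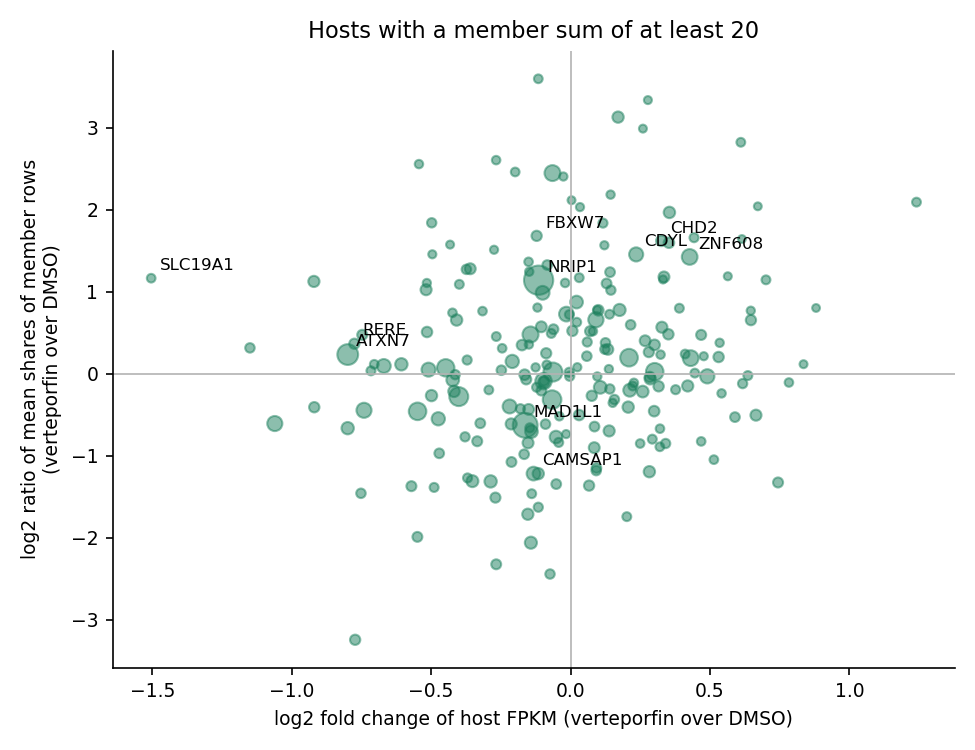
Log2 fold change of host FPKM (horizontal axis) against the log2 ratio of the mean shares of the host's member rows (vertical axis), both verteporfin over DMSO, for hosts with a member sum of at least 20; point size grows with the mean share. NRIP1 lies near 0 on the horizontal axis at a ratio of shares of 2.21, and SLC19A1 at -1.50 has a ratio of shares of 2.24, which rests on 1 DMSO library above 0.

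Factors that form or clear circular RNAs were followed in FPKM. Of 34 listed genes 32 were tested, and 0 passed over all genes in either direction, with 2 at an unadjusted p under 0.05. The log2 fold change was positive in 15 and negative in 17, with a median of -0.07 against 0.0074 over all genes. TNRC6B, a partner of Argonaute proteins, was at 31.7, 33.7 and 34.5 FPKM in verteporfin and 10.1, 23.0 and 8.71 FPKM in DMSO, without overlap. Its log2 fold change was 1.32 with a standard error of 0.36 (adjusted p = 0.402 by limma). DIS3, an exosome nuclease, had a log2 fold change of 0.84 and YTHDC1, a reader of methylated adenosine, one of 0.61. QKI, which binds introns beside circularized exons, had a log2 fold change of -0.42, with a 95% interval from -1.16 to 0.32. Of the 32, 9 hosted members themselves (28.1%, against 7.97% of all tested genes), ADARB1 and YTHDF2 among them. By any row of the block, 15 of the 34 listed genes were hosts.

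The position of a row in the table went with its chance of being a member. In bins of 200 rows, 9% to 12% of the first 1000 rows were members, 35% to 65% of rows 1001 to 2800, and 16.5% to 32.0% of the rows after them. The bounds of these stretches were set after the bins were seen. A bin of the first stretch held transcripts of 3 to 6 chromosomes, one of the second those of 8 to 23 and one of the last those of 4 to 16. Over rows 1 to 1000 the sums were 632, 445 and 776 in verteporfin and 557, 447 and 347 in DMSO, a ratio of 1.37 with overlapping groups. Rows 1001 to 2800 summed to 3535, 6402 and 2650 in verteporfin and 1702, 1364 and 1004 in DMSO, a ratio of 3.09 without overlap. In rows 2801 to 4765 the ratio was 2.32. The 71 member rows of the known circular RNA hosts were split as 0, 50 and 21 over the 3 stretches. These stretches held 104, 827 and 497 members of any host. Counting all rows, members or not, the known hosts had 9, 73 and 63 rows in them. Verteporfin replicate 2 held 4.65% of its sum in the first stretch, against 10.7% to 17.0% in the other libraries.

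**Figure D5:**
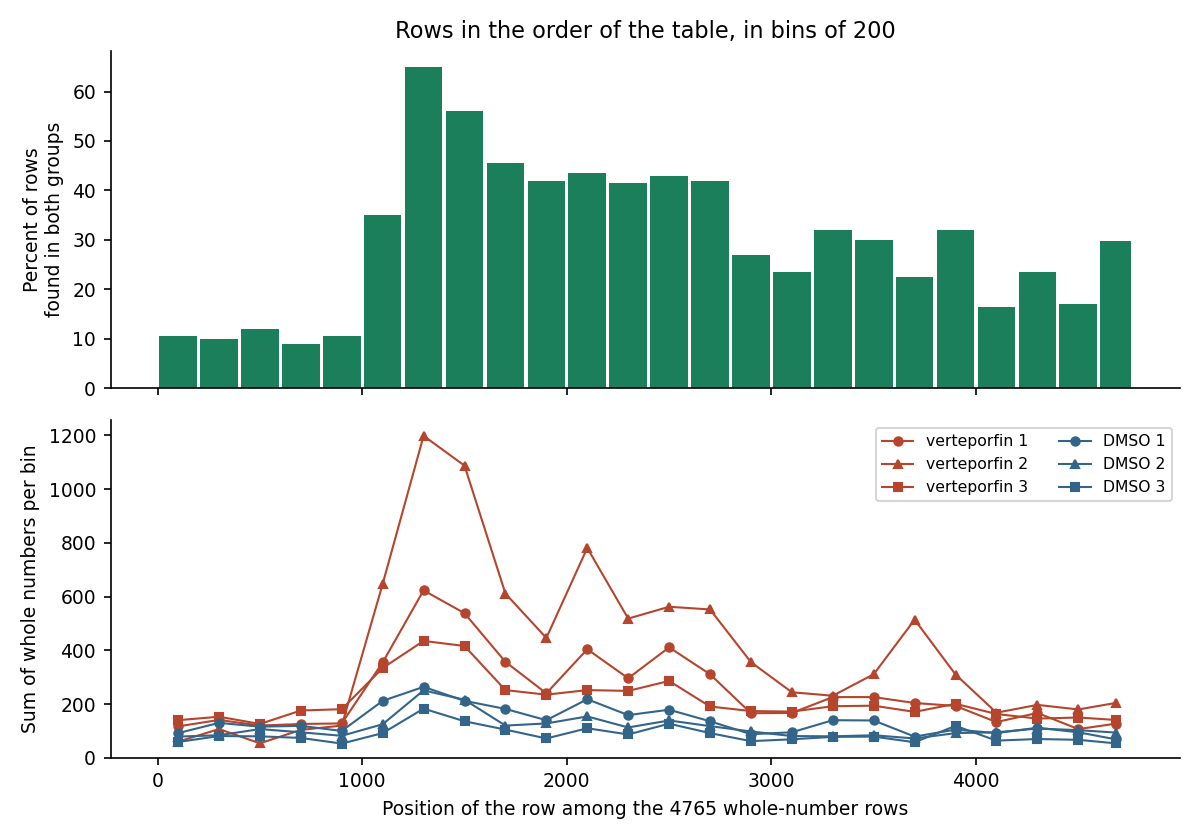
Percent of rows found in both groups (top) and sum of whole numbers in each library (bottom, verteporfin red and DMSO blue) for successive bins of 200 rows in the order of the table (horizontal axis). The first 5 bins lie at 12% or less and the bin with the highest share reaches 65.0%, where verteporfin replicate 2 is the highest library.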

How the data were processed

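The authors deposited FPKM per transcript for the first 62250 rows, per the file headers; the 4765 rows after them stand in the same columns as whole numbers, whose making is not given in the sources used here. Build hg18 is given by the submitters' processing notes, which also list STAR, HISAT2 2.1.0, edgeR, cutadapt, StringTie 1.3.3 and FastQC without saying what each was used for. No annotation of that build was used here, so no coordinates are given. Identifiers were matched without version to GENCODE 29 (61975 FPKM transcripts; 275 unmatched) for genes, exons and chromosomes. Near-identical genes and overlapping genes may share reads.

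Whole numbers were used as deposited and per 1000 of the library's whole-number sum. No count model was used, since the rule draws on the values of both groups, and no counting interval is given, since the unit counted is unknown. FPKM were summed to 13494 genes; those with a mean of at least 0.5 (12952) were tested on log2(FPKM + 1) with limma 3.58.1 (eBayes with trend, 2-sided, treatment as the only term, Benjamini-Hochberg, threshold 0.05) in R 4.3.3. A fold change on this scale understates low genes. Library measures were compared with 2-sided exact permutation tests over 20 splits. Other steps used Python 3.11.15 and pandas 2.3.3. The limma step was tested on simulated data, as independent normal values with the means and spreads of these genes. Changes were planted only in genes of higher FPKM. The fit called 5.6% of genes changed by a log2 of 1 in either direction and 63.2% of those changed by 2. Of unchanged genes it called 0.0267%.

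The rows, lists and tests were chosen with earlier results of these data known. Genes named were the 12 hosts of largest share, the 10 with most member rows, the 12 highest rows above 0 in all 6 libraries, up to 20 hosts per list, and the 5 highest and lowest of hosts and of circular RNA factors by FPKM; others are marked. Equal replicate numbers correlated in their deviations from group means at 0.389, 0.509 and 0.0985, and unequal numbers at -0.464 to 0.138. The labels do not say that equal numbers share a culture or a day. The main fit therefore left the number out, and a block for it is given as an alternative. Whether the samples are paired was not settled. A few genes that this rule names are not reported here.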

Additional observations from a re-analysis of the deposited data

How the results depend on the processing

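The number of rows found in both groups was 287 when at least 2 libraries of each group had to be above 0, 913 when a value of at least 2 was required in each group, and 1323 transcript identifiers when the rows of an identifier were summed first. Leaving out each library gave 990 to 1325 rows, lowest without verteporfin replicate 2. The ratio of the members' sums, verteporfin over DMSO, was 0.898 as a share of the library sum and 2.37 unscaled. As shares it ranged from 0.826 to 0.997 when 1 library was left out. The ratio of the block's sums ranged from 2.05 without verteporfin replicate 2 to 2.87 without verteporfin replicate 3, and stayed above 1 in each of these settings, as did those of rows, identifiers and hosts above 0. Of 72 named hosts, unscaled values moved the ratio of 60 by more than the spread between replicates. In FPKM, the replicate number as a block gave 8 hosts at an adjusted p under 0.05 by limma (TMEM109, TGFB1, SLC19A1, ZCCHC7, TTLL1, NIBAN3, RMDN3 and ENSG00000249319) of 84 genes (0.649% of those tested); the other settings, leaving out each library included, gave 0 hosts. Over all genes 2 passed, 0 with a pseudocount of 0.1 or 0.01, with equal medians or with no variance trend, and 0 to 13 when 1 library was left out. TARDBP had a log2 fold change of -0.40, but 0.03 without verteporfin replicate 3 and 0.038 without DMSO replicate 2, within a range of -1.03 to 0.038. METTL14 had 0.58, but -0.27 without DMSO replicate 1, within a range of -0.27 to 1.01; the cause was not tested. The unknown unit and depth of the whole numbers limit what small values can show: 40.7% of members summed to 5 or less.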
